A study of Mus musculus with 8 samples.

Results

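The myeloid C-type lectin receptors are cell-surface receptors by which macrophages, dendritic cells and neutrophils bind sugars and lipids of microbes or of damaged cells. The genes described were Clec4a1, Clec4a2, Clec4a3, Clec4d, Clec4e, Clec4n, Clec5a, Clec7a, Clec10a and Clec12a, chosen as every array probe whose gene name equalled one of these symbols. Each of the 10 genes had 1 probe of 60 bases, out of 39429 probes for 31751 gene names on the array. Of the 10, 7 passed the filter on dim probes and were tested among 16151 genes, and 3 (Clec4a2, Clec5a and Clec12a) did not pass.

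The cells were C10 cells, a derivative of the mouse pre-B line HAFTL in which C/EBPα, a myeloid transcription factor, can be switched on to turn them into macrophage-like cells. All 4 groups carry this inducible C/EBPα. A control shRNA line and a line labelled Tet2 knockdown (Tet2 shRNA) were each measured uninduced (0 h) and after 24 h in medium with 100 nM estradiol and 10 ng/ml of each of the cytokines IL-3 and M-CSF, on 2 one-colour arrays per group. Active C/EBPα, estradiol, M-CSF and IL-3 all came together at 24 h, so their effects cannot be told apart. The 2 arrays of a group are described as technical duplicates, so p-values measure the spread between arrays and not between cultures, and each shRNA is represented by 1 line.

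The activating receptors of this family signal through immunoreceptor tyrosine-based motifs. Clec4d (MCL), Clec4e (Mincle) and Clec4n (Dectin-2) use the adaptor encoded by Fcer1g, Clec5a (MDL-1) uses the adaptor encoded by Tyrobp, and Clec7a (Dectin-1, the β-glucan receptor) carries a motif of its own. They converge on the kinase Syk and then on Card9, Bcl10 and Malt1, which activate NF-κB and cytokine genes. Clec4a2 and Clec12a carry inhibitory motifs, and Clec10a (MGL1) binds galactose-type sugars in endocytosis.

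Levels are given as the background-subtracted probe signal in percent of the 75th percentile of that array, which sets the arrays to 1 scale (75th percentiles were 721.5 to 1435 signal units). A probe was "well above background" where the scanner software marked it so. Levels of different probes are not comparable with each other. Duplicate arrays correlated at 0.992 to 0.994, from 47.4% to 55.6% of probes per array were well above background, and no member was saturated. Markers of macrophages or monocytes (8 genes on the array) summed to 5768 to 7543 signal units, not scaled between arrays in this paragraph, in uninduced control arrays and to 960500 to 1038700 at 24 h, and in the knockdown-labelled line to 6086 to 7826 and 634640 to 714290. All 10 pre-B markers stayed well above background in every group, with sums of 862630 to 956940 at 0 h and 476120 to 506800 at 24 h in control arrays, and of 890970 to 1044500 and 433790 to 522160 in knockdown-labelled arrays. Neutrophil markers summed to 22986 to 27006 and 58168 to 61977 signal units in control arrays. In knockdown-labelled arrays they summed to 30218 to 35505 and 43152 to 54568. Of 4 tested ones 3 were called higher over 24 h in both lines, and 1 was called lower in the knockdown-labelled line. Over all genes 14.2% and 13.1% were called higher and lower in the control line, and 16.7% and 15.4% in the knockdown-labelled line. Elane and Csf3r were well above background on all 8 arrays and S100a8 and Camp on all 4 arrays at 24 h, while S100a9, Ltf and Mpo were not on any array. Dendritic markers summed to 32062 to 46404 and 30281 to 37822 in control arrays and to 43763 to 55418 and 16862 to 24206 in knockdown-labelled arrays, with 2 of 5 tested ones called higher in the control line and 3 of 5 in the knockdown-labelled line. Itgax and Clec9a were well above background on all 4 arrays at 24 h and on 0 at 0 h. Siglech was so on all 8, and Xcr1, Ccr7 and Cd209a on none. Zbtb46 was so on 2 arrays of every group but the induced control group, where it was on 0. Flt3 was so on 2 arrays of every group but the uninduced knockdown-labelled group, where it was on 1. T or NK markers summed to 2295 to 3128 and 4206 to 6633 in control arrays and to 2152 to 4222 and 3292 to 5440 in knockdown-labelled arrays, with 3 of 4 tested ones called higher in both lines. Cd3e, Cd4 and Nkg7 were well above background on all 8 arrays, Klrb1c on both induced knockdown-labelled arrays, and Cd3g, Cd8a, Ncr1 and Klrd1 on none. The 75th percentiles were 721.5 and 895.7 in the induced knockdown-labelled arrays, against 1094 and 1251 in the induced control arrays. The unscaled sums above therefore do not compare the lines with each other. Of 8 mast cell or basophil markers, Tpsb2 was well above background on all 8 arrays and the other 7 on none. These are populations of cells, in which fewer cells of a type and less RNA per cell cannot be told apart, and the part of these marker changes in the results below was not tested.

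The transcript named in the knockdown label was not detectably lower in that line. Tet2 differed by -0.11 ± 0.10 (log2, SE) at 0 h (limma, adjusted p = 0.533, 95% interval -0.36 to 0.14) and by 0.01 ± 0.10 at 24 h (adjusted p = 0.982, interval -0.24 to 0.25). The word knockdown is therefore used as a label throughout.

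Of the uninduced cells, only those genes with a probe above background can be described by a level. Clec7a was well above background on all 8 arrays, at 375% and 336% of the 75th percentile in the uninduced control arrays and at 376% and 387% in the uninduced knockdown-labelled arrays. Clec4a3, a receptor of the Clec4a group, was well above background on all 8 arrays as well, at 22.7% and 20.9% in uninduced control cells and 12.8% and 11.9% in uninduced knockdown-labelled cells. The other 5 tested genes were not well above background on either uninduced control array. In the uninduced knockdown-labelled line Clec4n was well above background on 1 of 2 arrays (2.88%, against 0.824% on the other).

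The remaining 3 of the 10 receptors could not be tested. Clec4a2 was between 0.365% and 1.03% of the 75th percentile and Clec12a between 0.368% and 1.72%, and neither probe was well above background on any of the 8 arrays. Clec5a was well above background on 1 array, the second array of the uninduced knockdown-labelled line (10.1%, against 0.572% on its duplicate), and below it on the other 7 arrays (0.423% to 0.973%). The same array was the one that held the higher Clec4n level. No level can be given for these 3 receptors in induced cells.

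**Figure D1:**
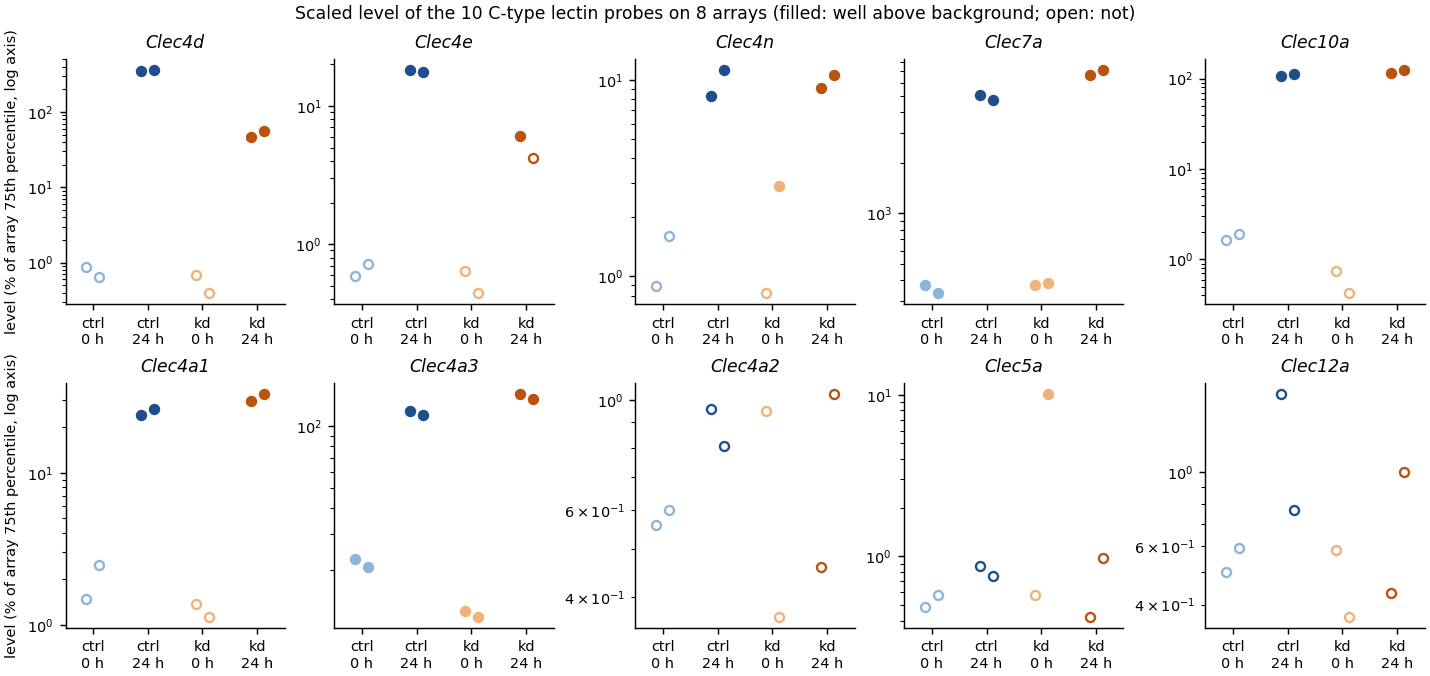
Level of each of the 10 probes (percent of the array's 75th percentile, log axis, each panel with its own scale) on 2 arrays in each of 4 groups (ctrl, control line; kd, line labelled Tet2 knockdown), filled where well above background and open where not. Both 24 h groups lie above both 0 h groups for the 7 tested genes, Clec4d and Clec4e lie lower in the knockdown-labelled line at 24 h, and Clec4a2 and Clec12a are open on every array.

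The tested receptors rose in the control line over 24 h of induction. Calls required an adjusted p under 0.05 in the limma fit together with a 2-fold difference or more. All 7 tested receptors were called higher and 0 lower, where 14.2% of all tested genes were called higher and 13.1% lower; the filter let genes pass that were high in 1 group only, so this count carries no support of its own. The median change of the 7 was 3.79 on the log2 scale, or 3.33 with genes below background at their lower bound, against -0.0001 for all genes.

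Clec4d, which binds mycobacterial glycolipid, was below background at 0 h in control cells (0.888% and 0.654%) and reached 351% and 359% at 24 h, an increase of at least 142-fold. Clec4e, which binds the same class of glycolipid, went from below background (0.587% and 0.721%) to 18.2% and 17.6%, an increase of at least 7.16-fold. Clec4n, which recognizes fungal mannans, went from below background (0.897% and 1.61%) to 8.29% and 11.2%, an increase of at least 3.86-fold. For these 3 and the other 4 tested receptors both induced arrays lay above both uninduced arrays, as did those of 39% of all genes. These bounds use, for each array, the higher of the probe's own value and the lowest level of any probe well above background.

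Clec7a rose from 375% and 336% to 5089% and 4715%, a change of 3.79 ± 0.08 (log2, SE), or 13.8-fold. Clec4a3 rose from 22.7% and 20.9% to 119% and 113%, a change of 2.41 ± 0.08 or 5.33-fold. For these 2 genes both times were measured, and the groups did not overlap. Clec10a rose at least 43.4-fold, from 1.65% and 1.90% below background to 106% and 111%. Clec4a1, a relative of Clec4a3, rose at least 10.0-fold, from 1.48% and 2.46% below background to 24.0% and 26.1%.

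The same 7 receptors were called higher, and 0 lower, in the knockdown-labelled line (16.7% of all genes were called higher and 15.4% lower). The median change was 4.17, or 3.84 with bounds, against 0.14 for all genes. Again both induced arrays lay above both uninduced arrays for all 7, as for 45.4% of all genes. Clec4d reached 47.2% and 56.4% at 24 h, at least 23.6-fold above its 0 h level of 0.682% and 0.396%, which was below background. Clec4e reached 6.04% and 4.24%, only the first of them well above background, from 0.638% and 0.443% below background at 0 h. Its computed bound of 2.31-fold includes the second 24 h value, so it is no true lower bound. Clec4n rose from 0.824% (below background) and 2.88% to 9.12% and 10.5%, a change of 2.67 ± 0.62 (adjusted p = 0.0109 in limma) that rests on 1 of 2 uninduced arrays above background. Without the first uninduced array of that line the change was 1.76 (adjusted p = 0.0164), and without the second, which held the higher level, it was 3.57 (adjusted p = 0.00156). Without the second 24 h array it was 2.56 and was no longer called (adjusted p = 0.0523).

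Clec7a rose in this line to 6632% and 7121%, 18.0-fold above 376% and 387%. Clec4a3 rose to 143% and 136%, 11.3-fold above 12.8% and 11.9%. Clec10a rose at least 54.8-fold, from 0.739% and 0.426% below background to 116% and 124%. Clec4a1 rose at least 14.3-fold, from 1.38% and 1.13% below background to 29.7% and 33.0%. The sizes of these inductions depend on the background correction, and each lower bound holds for the scanner's processed signals alone. With the authors' deposited values, which match a correction that adds an offset of 50 signal units, the log2 changes in the control line were 5.44 for Clec4d, 3.70 for Clec10a, 1.83 for Clec4e, 1.81 for Clec4a1 and 0.95 for Clec4n. In the knockdown-labelled line they were 2.97 for Clec4d, 4.03 for Clec10a, 0.88 for Clec4e, 2.11 for Clec4a1 and 0.79 for Clec4n. Each of these lies below the lower bound given above where there is one, and Clec4n in both lines and Clec4e in the knockdown-labelled line lie under 2-fold.

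**Figure D2:**
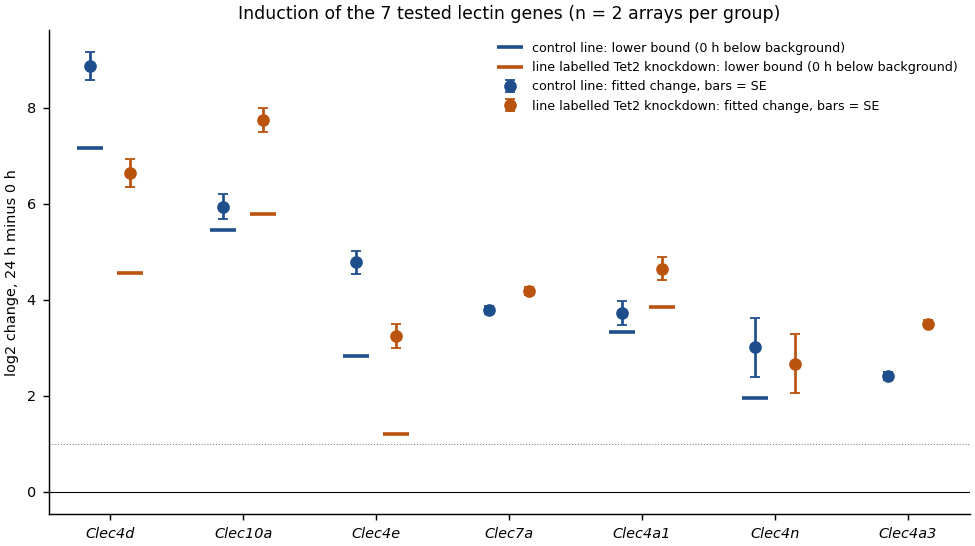
Fitted log2 change from 0 h to 24 h for the 7 tested genes in the control line and the knockdown-labelled line (points, bars are SE, 2 arrays per group), with a dash at the lower bound where the 0 h level was below background; the dotted line marks 2-fold. All fitted changes and dashes lie above 2-fold. A fitted change above a dash rests on 0 h values below background and its size has no order against the others. The Clec4e dash of the knockdown-labelled line includes a 24 h value that was not well above background, so it is no true lower bound.

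The 24 h lines differed in Clec4d and Clec4e, whose products bind glycolipid and pair with the Fcer1g adaptor. Of the 7 tested receptors, 2 were called lower in the knockdown-labelled line and 0 higher, where 0.997% of all genes were called lower and 1.04% higher. At an unadjusted p under 0.05 in limma, 4 receptors differed, as did 5055 of all 16151 genes, so this count carries no support of its own. Clec4d was at 47.2% and 56.4% in knockdown-labelled cells against 351% and 359% in control cells. The difference was -2.78 ± 0.29 (limma, adjusted p = 0.00569), or 14.5% of the control level (95% interval 8.84% to 23.9%). It was -2.89 on the first slide and -2.67 on the second, and the adjusted p was 0.00803 with slide as a block. Clec4d was called in all 8 fits that left out 1 array, with differences of -2.91 to -2.65 and adjusted p of 0.00522 to 0.0427.

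Clec4e was at 6.04% and 4.24% in knockdown-labelled cells against 18.2% and 17.6% in control cells, a difference of -1.82 ± 0.24 (limma, adjusted p = 0.0108) or 28.3% of the control level. The second of the knockdown-labelled arrays was not well above background. The within-slide differences were -1.59 and -2.05. The call was lost without control 24 h array 1 (-1.80, adjusted p = 0.0690), without control 24 h array 2 (-1.85, adjusted p = 0.0622) and without knockdown-labelled 24 h array 2 (-1.57, adjusted p = 0.0546). It was also lost under normexp correction with 75th percentile scaling (-0.83, adjusted p = 0.0698) and with no filter (adjusted p = 0.0662), while it held with the authors' deposited values (-1.02, adjusted p = 0.00455).

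The other 5 receptors were not called between the lines at 24 h. Clec7a was 1.40-fold higher in the knockdown-labelled line (0.49 ± 0.08, adjusted p = 0.0209 in limma), under the 2-fold limit. Differences for the remaining receptors were 0.27 for Clec4a3 (adjusted p = 0.0737), 0.32 for Clec4a1 (0.442), 0.14 for Clec10a (0.763) and 0.02 for Clec4n (0.989). The 95% interval of Clec4n ran from -1.53 to 1.57, so a difference of over 2-fold either way is not excluded. The Clec4n levels of the lines overlapped, while those of the other 6 tested receptors did not, as was so for 33.8% of all genes in the higher and 25.9% in the lower direction.

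At 0 h, 0 receptors were called higher and 1 lower, with 0.328% of all genes called higher and 1.39% lower. The 1 called was Clec10a, at 0.739% and 0.426% in knockdown-labelled cells against 1.65% and 1.90% in control cells. All 4 of these values were below background, so the difference of -1.66 gives no fold. With values raised to the lowest detected level of each array it was -0.19 (adjusted p = 0.644). Clec4a3, above background on all arrays, was at 12.8% and 11.9% against 22.7% and 20.9%, or 56.7% of the control level (-0.82 ± 0.08, adjusted p = 0.00437 in limma), under the 2-fold limit. Clec7a differed by 0.10 ± 0.08 (adjusted p = 0.467), with a 95% interval of -0.10 to 0.31.

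**Figure D3:**
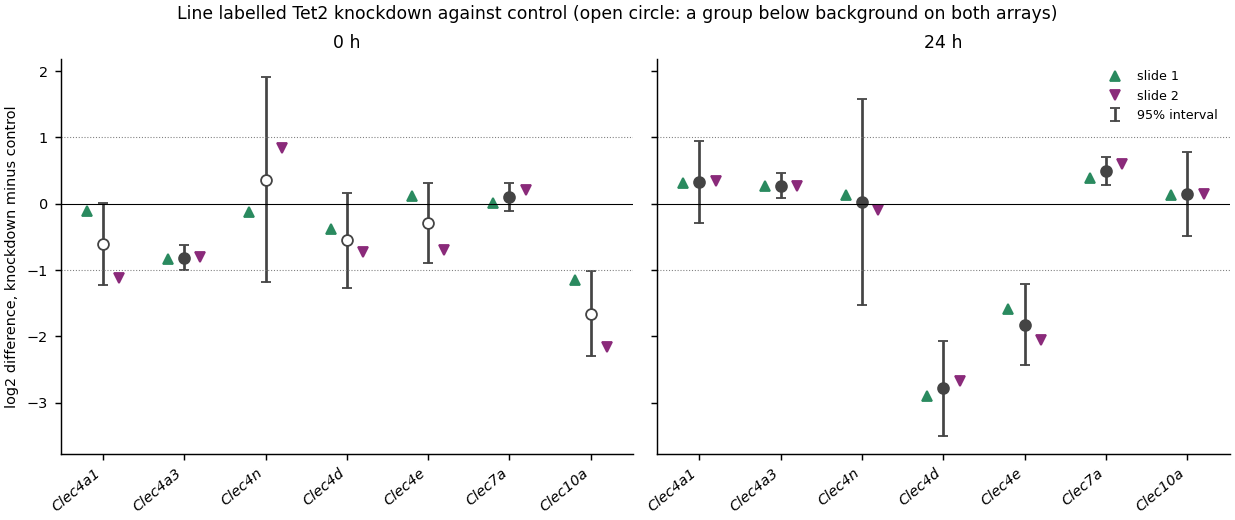
Log2 difference between the knockdown-labelled line and the control line for the 7 tested genes at 0 h and 24 h, with 95% intervals (bars), the differences within each of the 2 slides (triangles) and dotted lines at 2-fold; open circles mark comparisons in which at least 1 group was below background on both arrays. At 24 h Clec4d (-2.78) and Clec4e (-1.82) lie below the 2-fold line and the other 5 genes between the lines, with a wide interval for Clec4n.

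The difference of the inductions (knockdown-labelled minus control) was called higher for 2 receptors and lower for 2, where 2.36% of all genes were called higher and 1.46% lower. For Clec4d the fitted difference was -2.23 ± 0.41 (limma, adjusted p = 0.0234), and -2.59 with values raised to the background level. For Clec4e the fitted difference was -1.53 ± 0.34 (limma, adjusted p = 0.0393), and -1.57 at the background level. The 0 h values of Clec4d and Clec4e were below background in both lines, so no difference in their inductions can be given. What was measured is their lower level at 24 h. Clec4a3 rose more in the knockdown-labelled line, by 1.09 ± 0.11 (adjusted p = 0.00663), with -0.82 of difference at 0 h and 0.27 at 24 h behind it. Clec10a differed by 1.80 ± 0.36 (adjusted p = 0.0296), but only 0.33 (adjusted p = 0.530) with values raised to the background level, since its 0 h values were all below background.

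The Clec4d call was lost without any 1 of the 4 control arrays or either 24 h knockdown-labelled array (-2.45 to -2.01, adjusted p = 0.0556 to 0.0789). Leaving out any 1 of 7 arrays, all but the second uninduced knockdown-labelled one, ended the call of Clec4e (-1.79 to -1.27, adjusted p = 0.0541 to 0.115), and leaving out any control array or any 24 h knockdown-labelled array ended that of Clec10a (adjusted p = 0.0771 to 0.0938). Clec4a3 was called in all 8 fits that left out 1 array (adjusted p = 0.0226 to 0.0348), but was 0.82 with the normexp correction, 0.74 with the authors' deposited values and 0.94 with median scaling (adjusted p = 0.274), all under 2-fold.

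**Figure D4:**
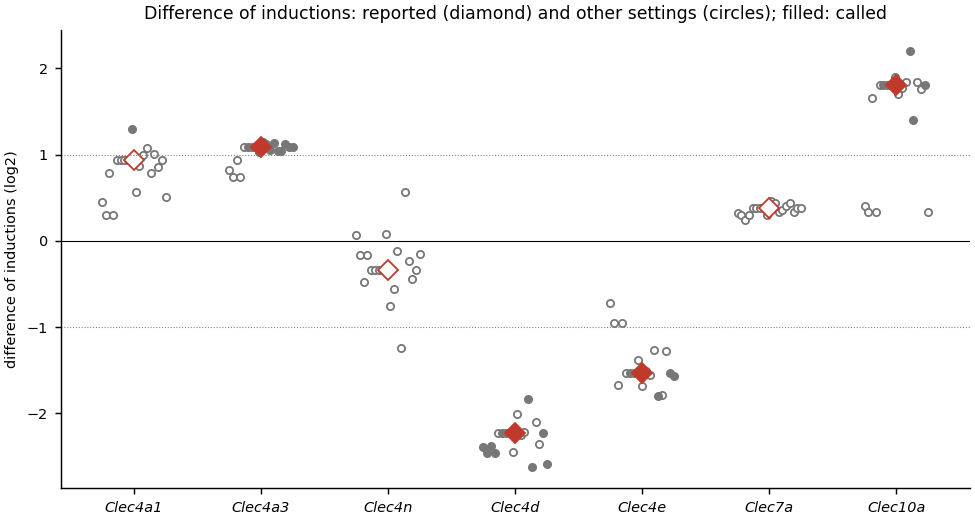
Difference of inductions (log2, knockdown-labelled minus control) for the 7 tested genes as reported (diamond) and under each other setting (circles), filled where called and open where not; dotted lines mark 2-fold. Clec4d lies below -1 and Clec4a3 between 0.74 and 1.15 at every setting, while Clec10a ranges from 0.33 to 2.20.

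Of the 7 tested receptors 6 are encoded on chromosome 6, in the Clec4 group and the Clec7a group, and Clec10a on chromosome 11 (mm9). The Clec4d and Clec4e probes lie 8.09 kb apart, at chr6:123224788-123224847 and chr6:123232878-123232937, with Clec4n 27.8 kb before Clec4d. Clec4d and Clec4e were the neighbours called lower at 24 h, while Clec4n beside them differed by 0.02. The probes of the genes between Clec4a3 and Clec4n (Clec4a4, Clec4b1, Clec4a2 and Clec4b2) were not well above background on any array. Necap1, an endocytosis gene just outside the group that is no lectin and was picked for its position, rose by 2.49 in the control line and 2.38 in the knockdown-labelled line. In the Clec7a group, Clec9a, a receptor of dendritic cells for dead cells, rose at least 7.20-fold in the control line beside Clec7a, and Olr1 and Clec12b were not well above background.

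Upstream windows of 250 bases from RefSeq (GRCm38.p6) were found for 8 of the 10 receptors in 10 windows. They are shown for Clec4d and Clec4e, which differed between lines at 24 h, for Clec7a, which rose from a level already above background, and for Clec12a, which was not above background, because C/EBPα is the induced factor. Capitals mark matches, on either strand, to a C/EBP-type motif (TTGCNNAA), a PU.1-type motif (GAGGAA) or an AP-1-type motif (TGANTCA), and each sequence runs 5′ to 3′ on the strand of the gene, up to the start site.
Clec4d (chr6:123261857-123262106, plus strand): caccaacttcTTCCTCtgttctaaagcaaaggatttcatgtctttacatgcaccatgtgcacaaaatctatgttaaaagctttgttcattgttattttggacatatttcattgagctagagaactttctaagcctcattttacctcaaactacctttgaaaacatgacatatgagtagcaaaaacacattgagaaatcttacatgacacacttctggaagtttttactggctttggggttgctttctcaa
Clec4e (chr6:123289872-123290121, minus strand): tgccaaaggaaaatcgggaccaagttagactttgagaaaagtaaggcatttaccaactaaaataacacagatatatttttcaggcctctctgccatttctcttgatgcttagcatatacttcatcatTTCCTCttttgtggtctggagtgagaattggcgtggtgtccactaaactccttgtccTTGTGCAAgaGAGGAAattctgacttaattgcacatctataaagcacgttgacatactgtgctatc
Clec7a (chr6:129472780-129473029, minus strand): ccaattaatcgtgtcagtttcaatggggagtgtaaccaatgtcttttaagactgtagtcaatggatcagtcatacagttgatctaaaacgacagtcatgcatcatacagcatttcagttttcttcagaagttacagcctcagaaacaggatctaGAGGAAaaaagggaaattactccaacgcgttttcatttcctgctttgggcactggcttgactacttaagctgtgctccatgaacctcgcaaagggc
Clec12a (chr6:129349994-129350243, plus strand): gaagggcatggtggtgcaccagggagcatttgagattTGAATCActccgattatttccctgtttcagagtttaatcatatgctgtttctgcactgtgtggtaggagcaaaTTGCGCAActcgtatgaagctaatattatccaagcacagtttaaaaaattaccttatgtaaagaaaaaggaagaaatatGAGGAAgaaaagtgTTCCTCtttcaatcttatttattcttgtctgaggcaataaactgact
The C/EBP-type letters were in 2 of the 8 receptors, Clec4e (66 bases upstream) and Clec12a (140 bases upstream), against 9.56% of all 32851 windows. The PU.1-type letters were in 7 of the 8, all but Clec4a2, against 23.3% of all windows. These counts are per receptor, with a match in any of its windows, while the shares are per window. Clec4a3 and Clec7a have 2 windows each, and Clec4a3 had the PU.1-type letters in only 1 of them. The AP-1-type letters were in 1 of the 8, Clec12a, against 6.75%. Clec4d had the PU.1-type letters alone, 240 bases upstream. The PU.1-type letters stood in windows of receptors that rose and in those of Clec5a and Clec12a alike. No match in a window says only that the letters are not there.

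The adaptor genes Fcer1g and Tyrobp were called higher in both lines. The adaptor gene Hcst was called higher only in the knockdown-labelled line (2.07), and its rise of 0.93 in the control line was under the 2-fold limit. Among the signalling genes (48 listed, 44 tested) 14 were called higher and 0 lower in the control line (14.2% and 13.1% of all genes), and 16 higher and 1 lower in the knockdown-labelled line (16.7% and 15.4% of all genes; Nfkb1, an NF-κB subunit, at -1.16), with medians of 0.62 and 0.80. Tyrobp rose 450-fold in control cells, from 34.5% and 28.7% to 14695% and 13656%. Fcer1g rose 320-fold, from 9.06% and 11.5% to 3443% and 3102%, and it stood at 2009% and 1914% in the induced knockdown-labelled cells (difference at 24 h -0.74, adjusted p = 0.264 in limma). Fgr, a Src-family kinase, rose at least 2.42-fold. This list passed the same filter as the receptors, so its counts of induced genes carry no support of their own.

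At 0 h 1 signalling gene, Tyrobp, was lower in the knockdown-labelled line (-1.02 ± 0.10, adjusted p = 0.005 in limma) and 0 were higher. At 24 h 1 was higher and 0 were lower. A single call among 44 genes is near the share over all genes (1.39% lower at 0 h, 1.04% higher at 24 h). Inductions differed in 3 cases (2.36% of all genes were called higher and 1.46% lower), all higher in the knockdown-labelled line. Among them Tyrobp differed by 1.24 ± 0.14 (adjusted p = 0.00869 in limma) and Hcst, the adaptor DAP10, by 1.14 ± 0.10 (adjusted p = 0.00551 in limma), with Hcst at 553% and 586% in the induced knockdown-labelled cells against 346% and 329% in the induced control cells. Syk, Bcl10 and Malt1, named for their place in the pathway after their values were seen, differed by -0.20 (adjusted p = 0.0755), 1.49 (adjusted p = 2.52e-05) and 0.45 (adjusted p = 0.0046) between 24 h and 0 h in the control line (limma), of which Bcl10 was called. Card9, named likewise, was above background on 1 of 2 induced control arrays and on neither uninduced one, and its fitted change of 2.18 was called (adjusted p = 0.0458 in limma).

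**Figure D5:**
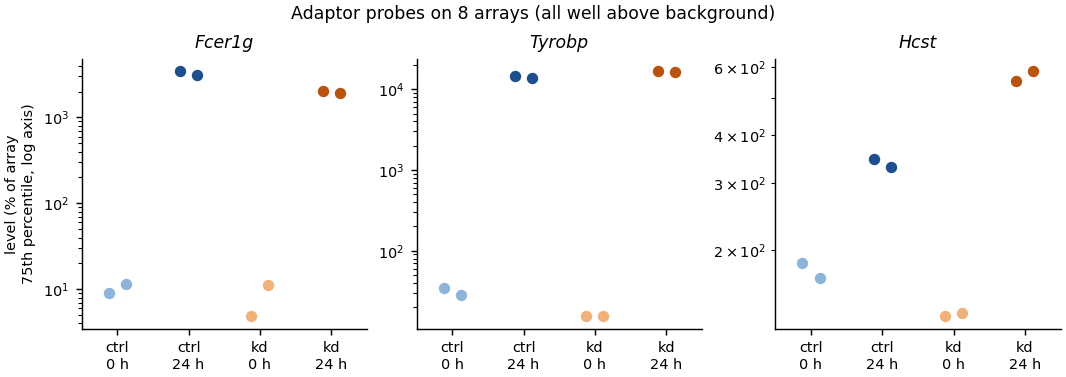
Level of the Fcer1g, Tyrobp and Hcst probes (percent of the array's 75th percentile, log axis, own scale per panel) on 2 arrays in each of 4 groups, all well above background. All 3 lie higher at 24 h than at 0 h in both lines, and Hcst reaches 553% and 586% in the knockdown-labelled line against 346% and 329% in the control line.

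Genes known to be induced through these receptors (31 listed, 19 tested) were called higher in 18 cases and lower in 0 in the control line. Their median change was 2.88, against -0.0001 for all genes. In the knockdown-labelled line 16 were called higher and 0 lower, with a median of 3.24 against 0.14. Over all genes 14.2% were called higher and 13.1% lower in the control line, and 16.7% and 15.4% in the knockdown-labelled line. The filter let genes pass that were high in 1 group only, so these counts of induced genes carry no support of their own. Il1b, an inflammatory cytokine, rose at least 1223-fold in control cells. Ccl2, a monocyte chemokine, rose 2786-fold, Socs3, a cytokine-signalling inhibitor, 180-fold and Ptgs2, the prostaglandin synthase, at least 44.2-fold. The uninduced control signals of Ccl2 were 35.6 and 52.1 units, and the dimmest probes well above background on those arrays had 22.7 and 33.9. The size of the Ccl2 fold therefore rests on values near background. At 0 h 5 of the 19 were lower in the knockdown-labelled line and 0 higher, where 1.39% of all genes were lower and 0.328% higher. Named by the rule are Csf2, a growth factor of myeloid cells (at least 4.55-fold lower), Ccl2 (at least 1.72-fold lower) and Ccl4 (-2.36, adjusted p = 0.00507 in limma). Outside the rule are the chemokine Ccl3 (-1.93) and the cytokine Il6 (-1.63). At 24 h Csf2 (-2.14) and Ccl2 (-1.78) were lower and 0 were higher, where 0.997% of all genes were lower and 1.04% higher. Over all genes the difference of inductions was called higher in 2.36% and lower in 1.46%. Inductions were larger in the knockdown-labelled line for Ccl4 (1.84) and Ccl3 (1.66), and smaller for Egr1 (-1.05), an early-response transcription factor. Csf2 was called too, but it was below background at 0 h in the knockdown-labelled line, where it rose at least 10.0-fold against 9.70-fold in the control line, so no difference in its induction can be given. These genes are targets of many other receptors too.

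Other C-type lectin genes were mostly not detected, with 17 of 52 tested. Of these 6 were called higher and 2 lower in the control line, where 14.2% and 13.1% of all genes were, and 6 and 1 in the knockdown-labelled line, where 16.7% and 15.4% were, with medians of 0.74 and 0.67. The lower calls are near the share over all genes. Clec1a, among those called higher in the control line, was not well above background on any control array, so its call gives no fold. The filter let genes pass that were high in 1 group only, so the higher calls carry no support of their own. The genes called lower, named after their values were seen, were Mgl2, the paralog of Clec10a, at -1.89 in control and -2.04 in knockdown-labelled cells, and Cd72, a B-cell inhibitory receptor, at -1.03 in control cells. Selp, P-selectin, rose 103-fold and Clec2d, a ligand of an NK receptor, 14.1-fold. In the uninduced knockdown-labelled line 0 genes of the list were called higher and 1 lower, and 1 induction was larger and 0 smaller in that line. Over all genes 0.328% were called higher and 1.39% lower at 0 h, and 2.36% and 1.46% in the difference of inductions. Between lines at 24 h limma made 0 calls in this list in either direction. An unadjusted p under 0.05 was found for 6 of its 17 tested genes and for 5055 of all 16151 genes, so the 6 are near the share over all genes.

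Over the 8 arrays, the gene whose mean-centred log2 profile lay nearest to each receptor was, by root mean square difference, Trp53inp1 for Clec4a3 (0.0843), Msr1, a macrophage scavenger receptor, for Clec4e (0.120), Atp6v0a1, a proton-pump subunit, for Clec7a (0.133), H2-DMb2, of the class II pathway, for Clec4a1 (0.195), Tmem121b for Clec4n (0.307), Plppr3 for Clec10a (0.314) and Lilr4b, an inhibitory myeloid receptor, for Clec4d (0.348). Only Clec4a3 and Clec7a were well above background on all 8 arrays; the distances of the other 5 receptors include uninduced values below background, which have no order.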

How the data were processed

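The 8 arrays were one-colour Agilent whole-genome mouse arrays (Cy3, 500 ng RNA input) in 4 groups of 2. The authors deposited scanner files with a background-subtracted signal intensity per spot, made with Feature Extraction 10.7.3.1 per the file headers, and a table of log2 values; limma is named in the submitters' processing notes, with no version. The deposited log2 table matched normexp (offset 50) with quantile normalization computed from the scanner intensities (r = 1 after rounding, column median 6.844).

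Signals of 43020 probe spots were taken to log2, and the array's 75th percentile over these spots was subtracted. Outlier-flagged spots were then dropped, and the log2 values of the spots of a probe were averaged. A probe was kept (20304 were) if 1 or more groups had it well above background on each of their 2 arrays, and the brightest kept probe stood for a gene. A limma 3.58.1 model in R 4.3.3 with 4 group means was fitted to all 16151 genes (residual df 4, prior df 1.51), with Benjamini-Hochberg adjustment over all genes. Calls needed adjusted p under 0.05 and 2-fold. The number of arrays limits precision.

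Slide number equals replicate number, per the file headers, and all 4 groups lie on each of the 2 slides. Deviations of same-numbered arrays from their group means correlated at 0.298 to 0.412 over the 6 pairs of groups, so slide was also fitted as a block. The procedure was tested on simulated data.

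Probe positions are mm9, per the file headers; the files do not say whether they lie in exons or UTRs. Clec7a was named by its symbol and the other receptors through accessions. No other probe shared 20 bases with a receptor's probe. Receptors, gene lists and tests were chosen with earlier results of these data known. Named list genes were, per list, the 4 largest called control inductions and the 3 largest called differences between lines. Some genes that this rule names are not reported here. Marker lists were used for sums and counts. Alternatives varied background correction, scaling, filter, probe choice, slide, samples and fold minimum.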

Additional observations from a re-analysis of the deposited data

Results flagged for a closer look

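The inductions of 4 receptors were called different between the lines in a test of the difference itself (limma interaction term, knockdown-labelled minus control, log2). Of these only Clec4a3 was well above background on all 8 arrays. The uninduced values of Clec4d, Clec4e and Clec10a were below background in both lines, so no difference in their inductions can be given. The fitted term was -2.23 ± 0.41 (SE, adjusted p = 0.0234) for Clec4d and -1.53 ± 0.34 (adjusted p = 0.0393) for Clec4e. Both had the lower level at 24 h in both knockdown-labelled arrays. Clec4a3 differed by 1.09 ± 0.11 (adjusted p = 0.00663), with the lower level at 0 h in both knockdown-labelled arrays. For Clec10a the fitted difference was 1.80 ± 0.36 (adjusted p = 0.0296), but all 4 uninduced values were below background. With values raised to the background level it was 0.33 (adjusted p = 0.530), so no difference is established. Under the other settings that kept all 8 arrays, the call held in 9 of 10 for Clec4d and 4 of 9 for Clec4e. It held in 4 of 10 for Clec10a and in 5 of 10 for Clec4a3, whose difference went down to 0.74. Of the 8 fits that left out 1 array, the call was lost in 6 for Clec4d, 7 for Clec4e, 6 for Clec10a and 0 for Clec4a3.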

How the results depend on the processing

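All 7 receptors were called induced in the control line when any 1 array was left out (7 to 7 calls), and 6 to 7 in the knockdown-labelled line. No called value changed sign at any setting tried, and of 653 single-receptor results 594 stayed on their side of the call limits, 56 lost a call and 3 gained one. Slide as a block (replicate block) changed no call of a receptor; the 24 h differences stayed at -2.78 (Clec4d) and -1.82 (Clec4e).

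The single 0 h call in the lower direction (Clec10a) went to 0 with normexp and percentile scaling, normexp and quantile normalization, the authors' table, no filter, only the groups compared, and values raised to the background level; with no minimum fold there were 2, and leaving out 1 array gave 0 to 1. The 2 lower calls at 24 h became 1 with normexp and percentile scaling, with no filter and with the stricter filter, which leaves Clec4e untested, and 1 to 2 with 1 array left out; without a minimum fold 1 receptor was higher. For the difference of inductions, the 2 higher calls became 0 with normexp and percentile scaling, quantile normalization, median scaling, the authors' table and no filter, 1 with values raised to the background level, and 1 to 2 with 1 array left out. The 2 lower calls became 1 with normexp and percentile scaling, quantile normalization, median scaling, the authors' table and the stricter filter, 0 with no filter, and 0 to 2 with 1 array left out. The cause was not tested, except that no filter nearly doubles the genes tested (31751). The background-level alternative was chosen after seeing the data.

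Over all genes, the 0 h comparison had 278 calls, and 99 with normexp and percentile scaling, 94 with quantile normalization or the authors' table, 166 with only the groups compared and 2176 with no minimum fold. At 24 h, 329 became 154, 163, 187 with no filter and 2236 with no minimum fold. The difference of inductions went from 617 to 282, 289, 212 with median scaling, 121 with no filter and 2627. With median scaling the all-gene median went from -0.0001 to -0.11 in the control line, from 0.14 to -0.11 in the knockdown-labelled line and from 0.05 to -0.09 in the difference, and the higher share of calls from 52.0% to 39.1% in the knockdown-labelled induction and from 61.8% to 48.1% in the difference. Signal over background limits Clec4e and Clec4n, and Clec4d, Clec4a1 and Clec10a at 0 h.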
